A study of Mus musculus with 3 samples.

Results

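The genes described here are the BMP ligands Bmp2, Bmp4 and Bmp7, the BMP receptors Bmpr1a, Bmpr2 and Acvr1, and the target genes Id1, Id2, Id3 and Smad6. They were chosen by name, and all 10 were found among the 32285 genes of the count tables. The data come from mouse colon organoids, which are 3-dimensional cultures grown from colon crypts and hold epithelial cells only. The 3 groups were untreated organoids, organoids treated with IFN-γ for 24 h and organoids treated with IFN-γ for 48 h, with 1 single-cell library each. Per the paper, all of them were kept in full medium, which holds the BMP antagonist Noggin and A83-01, an inhibitor of TGF-β type I receptors, beside growth factors that favour stem and progenitor cells. The organoids came from wild-type mice, and for the study as a whole the methods name C57bl/6 and 2 reporter strains (Krt20CreErt2/Rosa26-tdTomato and Axin2CreErt2/Rosa26-tdTomato) as tissue sources and mice of both sexes. Which strain, sex and number of mice stood behind each library is not given in the sources used here, and nothing says that the libraries came from separate cultures of separate animals. With 1 library per group the spread between samples is unknown, and every interval below covers counting error only.

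BMP ligands are secreted dimers that assemble type I receptors, such as BMPR1A and ACVR1, with the type II receptor BMPR2. The type I receptor then phosphorylates SMAD1, SMAD5 and SMAD9, which enter the nucleus with SMAD4 and switch on the Id genes, encoding inhibitors of basic helix-loop-helix transcription factors, and Smad6, encoding an inhibitory SMAD that dampens the same pathway. In the colon, BMP activity is high at the surface and low at the crypt base, where stromal cells secrete antagonists. The comparison asks which cells carried the ligand transcripts, how all 10 genes differed after IFN-γ, and whether the targets followed Bmp2 in each cell state.

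A barcode counted as a cell if it held 5000 or more UMIs (a UMI is 1 tagged transcript molecule), 400 or more detected genes and no more than 15% mitochondrial UMIs. Of the kept cells, 1058 were untreated, 917 came from the 24 h library and 2934 from the 48 h library. The libraries stood apart in depth, with a median of 33550 UMIs per untreated cell, 68784 at 24 h and 10772 at 48 h, and the summed UMIs were 49801935, 71077817 and 47243500. Between 1 and 4 barcodes were shared by the kept cells of any pair of libraries. The epithelial label held, since Epcam, Krt8, Krt18 and Cdh1 summed to between 3350 and 4690 CPM, which scales a gene's UMIs to a fixed library total, while 7 fibroblast markers summed to 64, 38 and 46 UMIs in the untreated, 24 h and 48 h library, 4 endothelial markers to 61, 26 and 37, and 6 immune markers to 43, 14 and 17. Col1a1, Lum, Kdr and Ptprc were at 0 in all 3 libraries. The IFN-γ response genes Irf1 and B2m were higher in both treated libraries, Irf1 by 3.82 and 3.72 and B2m by 2.76 and 3.06 on the log2 scale at 24 h and 48 h.

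Most genes measured were lower than in the untreated library on the CPM scale, 74.9% of them at 24 h and 62.8% at 48 h, and the 10 genes have to be read against that shift. Over the 17412 genes with at least 10 UMIs in the untreated and 24 h libraries together, the median log2 ratio to the untreated library was -0.46, and over 17376 genes it was -0.18 at 48 h. Scaling the libraries by TMM (trimmed mean of M-values) in place of their totals moved every log2 ratio up by 0.45 at 24 h and by 0.19 at 48 h. The median over the 9 of the 10 genes with at least 10 UMIs was -0.72 at 24 h and -0.39 at 48 h.

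**Figure D1:**
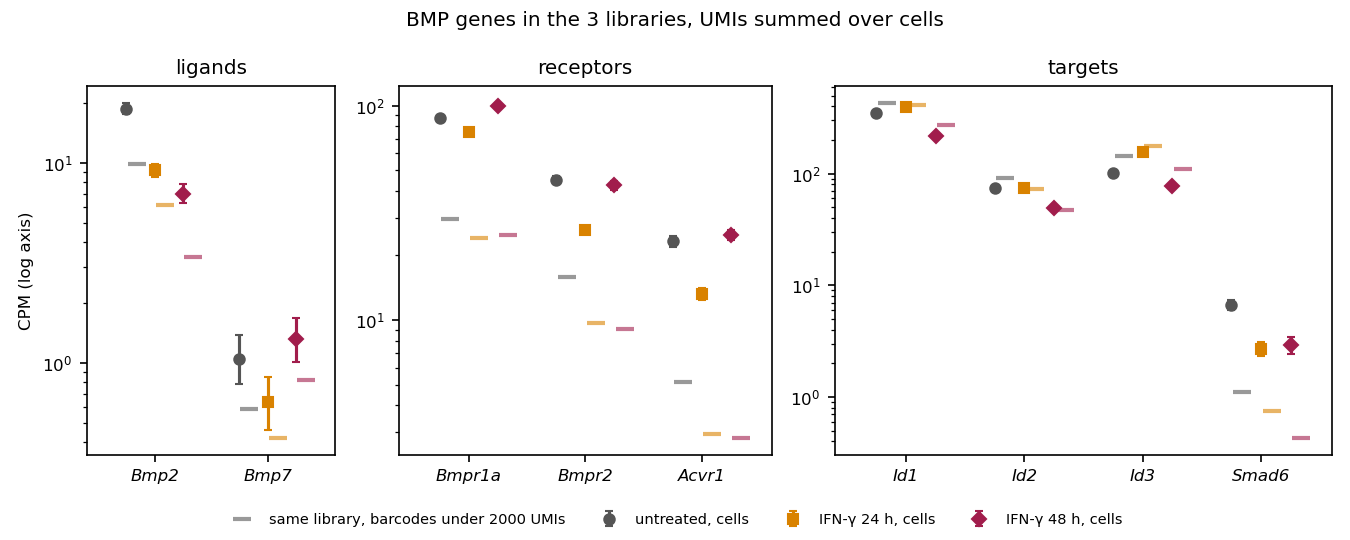
Level of each BMP gene in CPM (log axis) in the 3 libraries, with ligands, receptors and targets in separate panels. Filled symbols are UMIs summed over cells with 95% Poisson intervals, and the dash beside each symbol is the level in barcodes under 2000 UMIs of the same library; Bmp4, at 0 in the cells of all 3 libraries, is not drawn. Bmp2 and Smad6 sat lower in both treated libraries, Id1 and Id3 were highest at 24 h and lowest at 48 h, and Id1 and Id3 sat below the dashes in all 3 libraries.

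Among the ligands, Bmp2 was lower in both treated libraries, Bmp7 was rare and Bmp4 was not found in any cell. Bmp2 (ENSMUSG00000027358, chr2:133552159-133562885, plus strand, GRCm38, as are all gene positions here) had 932, 654 and 332 UMIs in the untreated, 24 h and 48 h library. Its level was 18.7 CPM (17.5 to 20) in the untreated library, 9.20 CPM (8.51 to 9.93) at 24 h and 7.03 CPM (6.29 to 7.83) at 48 h. The untreated library was the highest, and the 3 intervals did not overlap. The log2 ratio to the untreated library was -1.02 (-1.17 to -0.88) at 24 h, which became -0.58 under TMM scaling and -0.60 after each cell was thinned to 5000 UMIs. At 48 h it was -1.41 (-1.60 to -1.23), and -1.23 under TMM scaling.

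Bmp7 (ENSMUSG00000008999, chr2:172868012-172940321, minus strand), a ligand of the same family, had 52, 45 and 62 UMIs in the untreated, 24 h and 48 h cells. Its level was 1.04 CPM untreated, 0.633 CPM at 24 h and 1.31 CPM at 48 h. The log2 ratio was -0.72 (-1.33 to -0.12) at 24 h and 0.33 (-0.23 to 0.89) at 48 h, so the interval at 48 h held 0. Bmp4 (ENSMUSG00000021835, chr14:46383520-46390669, minus strand), which stromal cells of the gut are known to secrete, had 0 UMIs in the cells of all 3 libraries. The upper ends of the Poisson intervals for this count of 0 were 0.0741, 0.0519 and 0.0781 CPM in the untreated, 24 h and 48 h library.

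All 3 receptors lay above the median shift of all genes at 48 h, and Bmpr2 and Acvr1 lay below it at 24 h. Bmpr1a (ENSMUSG00000021796, chr14:34410734-34503341, minus strand), a type I receptor, was at 87.9 CPM untreated, 75.3 CPM at 24 h and 99.8 CPM at 48 h. Its log2 ratio was -0.22 (-0.28 to -0.17) at 24 h and 0.18 (0.12 to 0.24) at 48 h. Under TMM scaling the 24 h value was 0.22, so its direction at 24 h depended on the scaling, and after thinning the 48 h value was -0.04. Bmpr2 (ENSMUSG00000067336, chr1:59763400-59879014, plus strand), the type II receptor, was at 45.0, 26.3 and 42.4 CPM. Its log2 ratio was -0.78 (-0.87 to -0.69) at 24 h and -0.09 (-0.17 to 0.002) at 48 h. Acvr1 (ENSMUSG00000026836, chr2:58388644-58567157, minus strand), a second type I receptor, was at 23.4, 13.2 and 24.9 CPM. Its log2 ratio was -0.82 (-0.95 to -0.70) at 24 h and 0.09 (-0.03 to 0.21) at 48 h. All 3 receptors were lowest in the 24 h library, which was also the deepest per cell.

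Over all cells the Id genes did not follow Bmp2 at 24 h, while at 48 h all 3 were lower than in the untreated library. Id1 (ENSMUSG00000042745, chr2:152736251-152737410, plus strand) was at 348 CPM (343 to 353) untreated, 394 CPM (389 to 398) at 24 h and 217 CPM (213 to 221) at 48 h. Its log2 ratio was 0.18 (0.15 to 0.21) at 24 h and -0.68 (-0.72 to -0.64) at 48 h. Id3 (ENSMUSG00000007872, chr4:136143497-136145755, plus strand) was at 102 CPM (99.2 to 105) untreated, 156 CPM (153 to 159) at 24 h and 78.0 CPM (75.5 to 80.6) at 48 h. Its log2 ratio was 0.61 (0.56 to 0.66) at 24 h and -0.39 (-0.45 to -0.33) at 48 h. Both genes were thus highest at 24 h and lowest at 48 h, and this order held in each alternative processing tried.

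Id2 (ENSMUSG00000020644, chr12:25093799-25097140, minus strand) was at 75.0 CPM (72.6 to 77.4) untreated, 73.7 CPM (71.7 to 75.7) at 24 h and 49.1 CPM (47.1 to 51.2) at 48 h. Its log2 ratio of -0.02 (-0.09 to 0.04) at 24 h had an interval that held 0, and it was 0.42 under TMM scaling. At 48 h the log2 ratio was -0.61 (-0.69 to -0.53). Between the treated libraries, the log2 ratio of 48 h to 24 h was -0.86 for Id1, -0.59 for Id2 and -0.998 for Id3, against a median of 0.26 over 16814 genes.

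Smad6 (ENSMUSG00000036867, chr9:63953076-64022059, minus strand) followed Bmp2 rather than the Id genes in direction at 24 h. It was at 6.67 CPM (5.97 to 7.42) untreated, 2.67 CPM (2.31 to 3.08) at 24 h and 2.92 CPM (2.45 to 3.45) at 48 h, from 332, 190 and 138 UMIs. The untreated library was the highest, and the intervals of the treated libraries overlapped. The log2 ratio was -1.32 (-1.58 to -1.06) at 24 h and -1.19 (-1.49 to -0.90) at 48 h. After thinning to 5000 UMIs these were -0.36 and -0.75, and under TMM scaling -0.87 and -1.005. The thinned values rest on few UMIs. A Smad6 UMI was left in 33 untreated cells, or 3.12% (2.16 to 4.35), and in 19 cells at 24 h, or 2.07% (1.25 to 3.22). These intervals overlap.

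To show sequence next to the RefSeq starts of the target genes, RefSeq promoter windows (GRCm38.p6) were matched by symbol, which succeeded for 7 of the 10 genes. The windows of Id2 and Smad6 are printed because both are target genes and lie in part outside annotated exons. The Id3 window lies within an exon of a longer GENCODE transcript and is not printed, and no window was given for Bmp2, Bmp7 and Id1. Sequences run 5′ to 3′ on the gene's strand, and capitals mark a match to any of the motifs below. The stretch of Id2 lies 250 to 162 bases before its RefSeq start, at chr12:25096254-25096342 on the minus strand, which is inside the span of the gene given above because a longer GENCODE transcript starts further upstream. That of Smad6 is the 250 bases before its start, at chr9:64022060-64022309 on the minus strand.
Id2: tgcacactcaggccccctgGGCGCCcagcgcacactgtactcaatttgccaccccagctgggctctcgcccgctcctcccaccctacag
Smad6: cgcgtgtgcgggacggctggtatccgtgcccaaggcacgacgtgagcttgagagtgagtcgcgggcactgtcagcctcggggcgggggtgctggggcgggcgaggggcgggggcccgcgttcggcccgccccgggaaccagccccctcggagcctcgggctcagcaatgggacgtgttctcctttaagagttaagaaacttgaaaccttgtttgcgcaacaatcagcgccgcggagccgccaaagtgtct

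The motifs were GGCGCC, a sequence that BMP-activated SMADs are known to bind, and CAGAC, which holds the core bound by SMAD proteins in general, each read on both strands over 250 bases. Id2 had 1 match to GGCGCC, starting 231 bases before its start. Id3 had 2 matches to CAGAC, 167 and 68 bases before its start, and Smad6 had no match to either. Of the receptors, Bmpr1a and Bmpr2 had 1 match each to GGCGCC. The far end of the Bmpr2 window lies in an annotated exon. Among the 32851 promoters of the table, 9.59% held GGCGCC and 42.2% CAGAC. These matches describe letters in a window and not binding.

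Of the 9 genes measured, Bmp2 and Smad6 were at least 2-fold lower at 24 h, which is 2 of 9 where 26.0% of all genes measured were. The same 2 of 9 were at least 2-fold lower at 48 h, where 16.6% of all genes were. None of the 9 was at least 2-fold higher at 24 h or at 48 h, where 3.46% and 5.26% of all genes were. The share of the 9 genes past 2-fold was therefore close to that of all genes at both times. Under TMM scaling no member was at least 2-fold lower at 24 h, where 16.7% of all genes were, and Id3 at 1.06 was at least 2-fold higher, where 7.03% of all genes were. At 48 h the TMM values of Bmp2 and Smad6 stayed past 2-fold lower, where 13.4% of all genes were, and none was past 2-fold higher, where 6.66% were. Between 24 h and 48 h, Bmp7 alone was at least 2-fold higher, with a log2 ratio of 1.05 (0.47 to 1.64), where 11.6% of all genes were, and none was at least 2-fold lower, where 2.31% were. Under TMM scaling Bmp7 was at 0.79 and no member was at least 2-fold higher, where 6.36% of all genes were, while Id1 at -1.12 and Id3 at -1.26 were at least 2-fold lower, where 4.09% were.

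**Figure D2:**
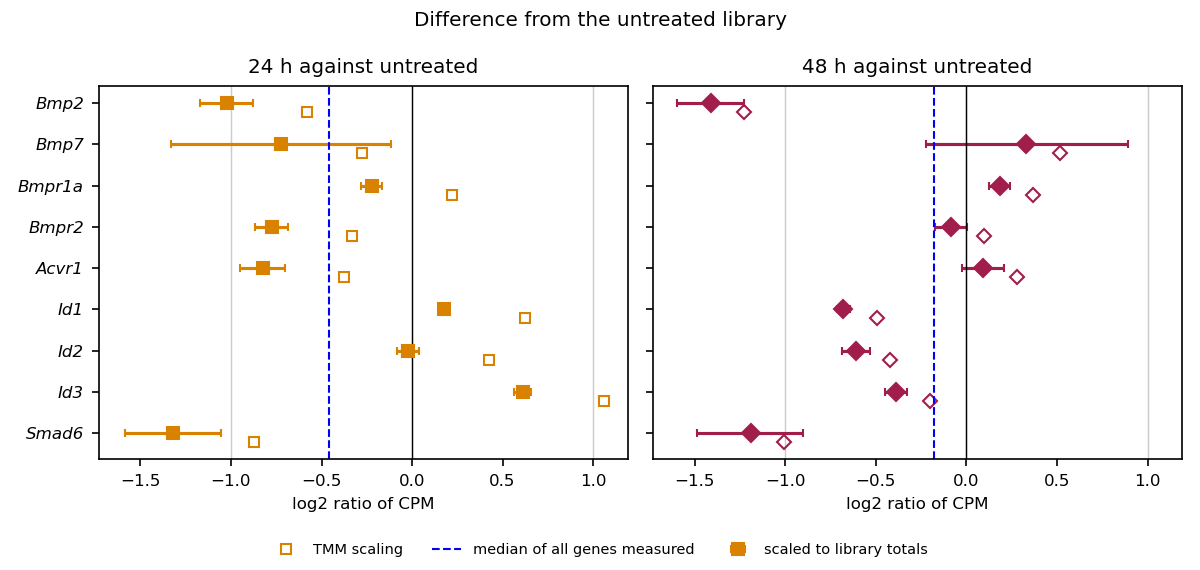
Log2 ratio of CPM to the untreated library for 9 BMP genes at 24 h (left) and 48 h (right). Filled symbols are scaled to library totals with 95% conditional binomial intervals for counting error, open symbols to TMM factors, the dashed line is the median of all genes measured (-0.46 and -0.18) and grey lines mark 2-fold. Bmp2 and Smad6 lie left of the dashed line at both times, and Id1, Id2 and Id3 lie right of it at 24 h and left of it at 48 h.

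Cells were next divided into 10 clusters of the 3 integrated libraries, built without the BMP genes and named from marker lists. Cluster 3, led by Krt20, Slc26a3 and Car1, was colonocyte-like, clusters 1 and 2 (Ube2c, Nusap1 and Plk1, and Ung, Ccne2 and Hist1h1a) were proliferating-like, clusters 4 and 5 (Kcnma1, Slc12a8 and Hepacam2, and Spink4, Muc2 and Sval1) were goblet-like, and cluster 8 (Chgb, Chga and Ptprn2) was enteroendocrine-like. The name of cluster 2 is weak. It had 5 proliferation markers up and 1 among its 10 leading genes, and the median log2 fold over that marker list was -0.28. In cluster 1 these were 9, 4 and 0.71. Clusters 0, 6, 7 and 9 stayed unnamed. For cluster 0 the best list was that of stem markers, with 7 up and a median log2 fold of 0.87, but 0 among its 10 leading genes. At a resolution of 1, a cluster led by Lrrc4, Sorbs2os and Lgr5 was stem-like. Cluster 0 was led by Lrrc4, AY036118 and Gm20528, and held 32.4%, 19.7% and 46.8% of the untreated, 24 h and 48 h cells. Its cells and those of clusters 4 and 6 were shallow, with a median of 15397, 14350.5 and 11289 UMIs in the untreated library, as were the enteroendocrine-like cells at 11498.5, against 51125 in the colonocyte-like cluster.

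Bmp2 came mainly from colonocyte-like cells in the untreated library. These 172 cells held 529 of the 932 Bmp2 UMIs, or 56.8% (53.5 to 60.0, exact Clopper-Pearson), but 20% of all UMIs. Their level was 53.1 CPM (48.7 to 57.8), against 13.0 CPM in goblet-like and 7.24 CPM in proliferating-like cells. The unnamed cluster 7, led by Selenbp1, 2610528A11Rik and St3gal4, was at 29.3 CPM (21.4 to 39.2) from 20 cells, and the enteroendocrine-like cluster at 26.5 CPM (14.9 to 43.8) from 15 UMIs in 10% of its 30 cells. In the untreated library 53 cells (5.01%) held 50% of the Bmp2 UMIs, and 220 cells (20.8%) held 50% of all UMIs. These are not like measures, because a gene with few UMIs per cell is found in few cells. For Acvr1, with 1163 UMIs, 130 cells (12.3%) held 50%, and for Smad6, with 332 UMIs, 46 cells (4.35%) did.

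Barcodes under 2000 UMIs were taken to carry mostly free RNA and give a background level, though they may also hold shallow cells. The lowest barcode held 1390 UMIs untreated, 851 at 24 h and 1624 at 48 h, so this window differed between libraries. In these barcodes Bmp2 was at 9.87 CPM untreated, 6.13 CPM at 24 h and 3.37 CPM at 48 h. In proliferating-like cells it was at 7.24, 5.82 and 4.09 CPM, near that background level in each library. A CPM level in such barcodes does not give the amount of free RNA in a deeper cell, and the part of free RNA was not tested. In colonocyte-like cells it was at 53.1, 18.5 and 20.6 CPM, above the background in each.

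Colonocyte markers were also higher in cells with Bmp2 when no clusters were used. After thinning every cell to 5000 UMIs, 72 untreated cells had a Bmp2 UMI and 986 did not. Colonocyte markers summed to 12800 CPM in the former and 1970 CPM in the latter, a log2 ratio of 2.69 (2.64 to 2.74). Goblet markers were higher too, by less, at 3580 against 2350 CPM, a log2 ratio of 0.61 (0.53 to 0.69). Proliferation markers were lower in cells with Bmp2, at 1670 against 2920 CPM, and so were stem markers, at 964 against 1680 CPM. Krt20, a keratin of differentiated surface cells, had a UMI in 29.2% (19.0 to 41.1) of cells with Bmp2 and in 3.45% (2.40 to 4.79) of cells without. The log2 ratio of the colonocyte markers was 1.37 (1.25 to 1.49) at 24 h, from 50 cells with Bmp2, and 1.88 (1.80 to 1.96) at 48 h, from 95 cells. That of the goblet markers was 1.21 (1.08 to 1.35) at 24 h and -0.005 (-0.17 to 0.16) at 48 h.

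After IFN-γ, Bmp2 was lower within the colonocyte-like cells themselves. The level there fell to 18.5 CPM (16.1 to 21.3) at 24 h and 20.6 CPM (17.2 to 24.5) at 48 h, log2 ratios of -1.52 (-1.76 to -1.28) and -1.37 (-1.66 to -1.08). Under TMM scaling these were -1.07 and -1.18. The share of thinned colonocyte-like cells with a Bmp2 UMI was 22.7% untreated, 9.26% at 24 h and 9.26% at 48 h, and without thinning it was 67.4%, 62.0% and 27.0%. In proliferating-like cells, where the Bmp2 level was near background, the thinned share was 1.01%, 2.55% and 2.28%. It rested on few cells with Bmp2, 11 at 24 h and 19 at 48 h. This share was higher in both treated libraries, though the CPM level in these cells was lower. Their median depth before thinning was 71329, 91959 and 24395 UMIs, against 51125, 66695.5 and 20292.5 in colonocyte-like cells. The colonocyte-like share of all Bmp2 UMIs was 30.6% (27.1 to 34.3) at 24 h and 38.0% (32.7 to 43.4) at 48 h, beside 15.2% and 12.9% of all UMIs. Proliferating-like cells held 18.6% untreated, 41.0% (37.2 to 44.9) at 24 h and 28.0% (23.2 to 33.2) at 48 h. Their share of all UMIs was 48.0%, 64.8% and 48.1%. At 24 h they thus held more of the Bmp2 UMIs than the colonocyte-like cells, at a lower level. Whether the remaining cells of this cluster are the same kind of colonocyte as in the untreated library was not tested.

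When the clusters of the treated library were weighted by the UMI shares of the untreated library, the log2 ratio of Bmp2 was -0.93 at 24 h and -1.22 at 48 h, close to the unweighted values. Changing only the makeup, with untreated levels in every cluster, gave -0.19 and -0.28. Over the clusters with at least 20 cells in both libraries, Bmp2 was lower at 24 h in 7 of 8 by value, with intervals clear of 0 in 3, and in 4 of 8 under TMM scaling. The exception was the unnamed cluster 6, led by Slc2a13, Pparg and Pde3a, at 10.2 CPM untreated and 32.3 CPM at 24 h from 7 and 15 UMIs. Its log2 ratio of 1.67 also had an interval clear of 0. The unnamed cluster 9, led by Gm26917, Il31ra and Lars2 and with a median of 6614.5 UMIs at 24 h, had too few untreated cells to be counted here. It held Bmp2 at 48.2 CPM untreated, 78.3 CPM (44.8 to 127) at 24 h, the highest of any cluster, and 31.1 CPM at 48 h, from 7, 16 and 2 UMIs. At 48 h Bmp2 was lower by value in 7 of 9 clusters, higher in cluster 6 and without a UMI in the enteroendocrine-like cluster.

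**Figure D3:**
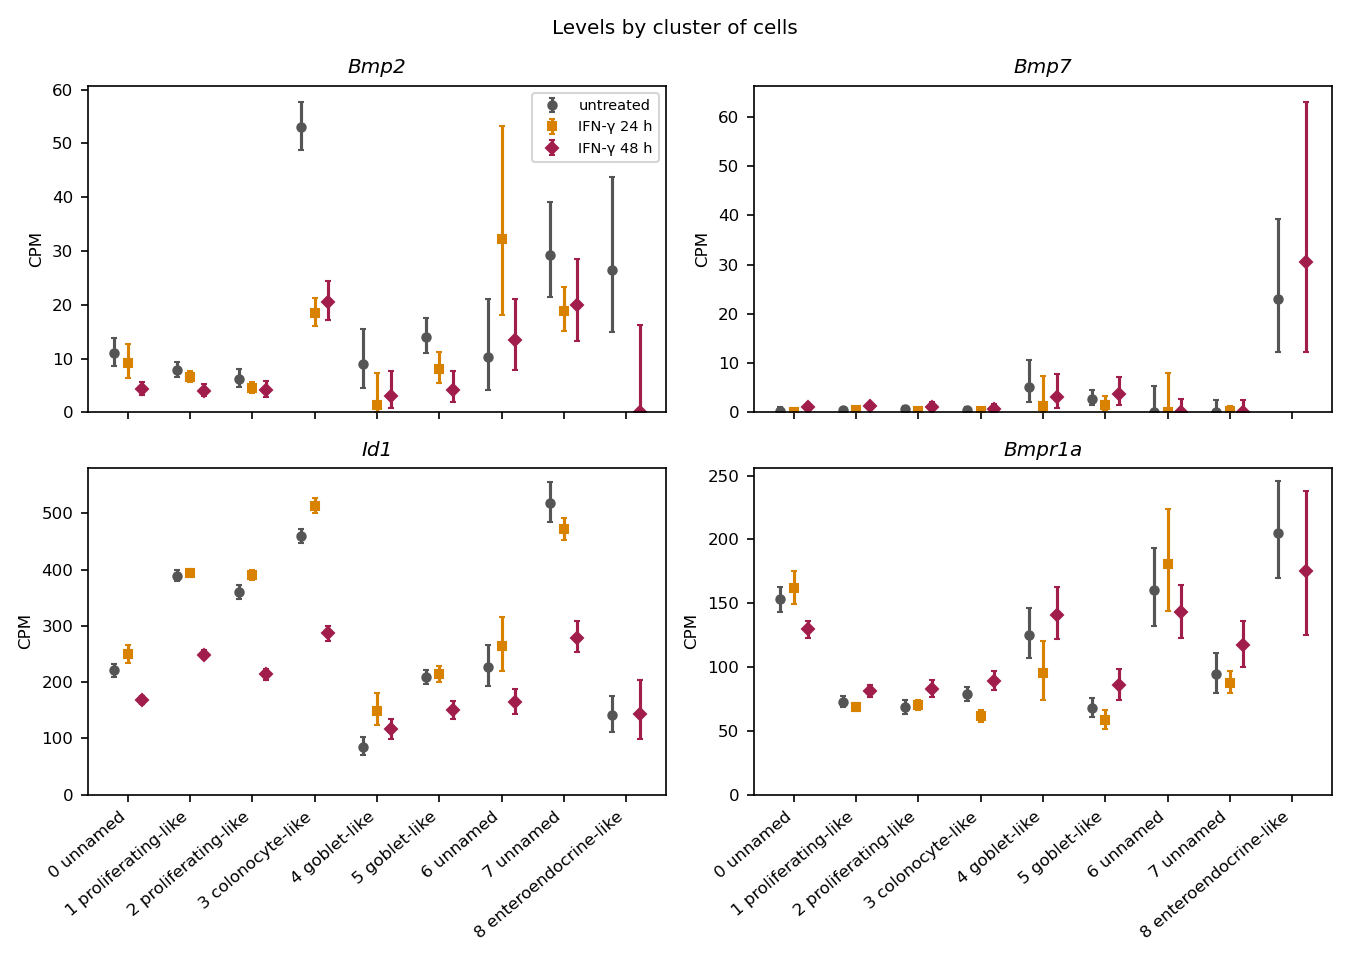
Level of Bmp2, Bmp7, Id1 and Bmpr1a in CPM (linear axes from 0) in clusters 0 to 8, with a symbol for each library and 95% Poisson intervals. The enteroendocrine-like cells at 24 h (12 cells) and the small cluster 9 (16, 28 and 9 cells) are not drawn. Among the sums drawn, untreated colonocyte-like cells were highest for Bmp2 at 53.1 CPM, enteroendocrine-like cells for Bmp7 at 23.0 and 30.6 CPM, and Id1 was lower at 48 h than at 24 h in each cluster drawn at both times.

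Bmp7 had another source in the untreated library. The enteroendocrine-like cells held 13 of its 52 untreated UMIs, or 25% (14.0 to 38.9), but 1.13% of all UMIs. At 24 h they held 16 of 45 UMIs, or 35.6% (21.9 to 51.2), and at 48 h 7 of 62, or 11.3% (4.66 to 21.9), beside 0.494% and 0.483% of all UMIs. Their level was 23.0 CPM (12.3 to 39.3) untreated, 45.5 CPM (26.0 to 74.0) at 24 h and 30.6 CPM (12.3 to 63.1) at 48 h, with overlapping intervals from 30, 12 and 21 cells. Goblet-like cells held a further 40.4% (27.0 to 54.9) of the untreated Bmp7 UMIs at 3.17 CPM, and 15.6% and 19.4% at 24 h and 48 h. Proliferating-like cells held 21.2% (11.1 to 34.7) untreated, 42.2% (27.7 to 57.8) at 24 h and 43.5% (31.0 to 56.7) at 48 h. Theirs was the largest share of any named class in both treated libraries, though below their 64.8% and 48.1% of all UMIs. In colonocyte-like cells Bmp7 had 5, 2 and 4 UMIs. The log2 ratio of 1.05 for Bmp7 between the treated libraries was 1.53 (0.63 to 2.45) within proliferating-like cells, at 0.413 CPM and 1.19 CPM, beside background levels of 0.421 and 0.823 CPM in barcodes under 2000 UMIs. Neither value lies far from that background, and the part of free RNA in them was not tested.

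Bmp2 was therefore measured mostly in absorptive cells and Bmp7 mostly in secretory cells of the untreated organoids. Across 27 sums of a cluster in a library with at least 20 cells, the log2 levels of Bmp2 and Bmp7 had a Pearson r of -0.45, which is a description over sums that share libraries and depth.

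In the untreated library none of the targets was as concentrated in colonocyte-like cells as Bmp2. Id1 was spread widely, since colonocyte-like cells held 26.4% (25.8 to 27.1) of its untreated UMIs and proliferating-like cells 52.2% (51.5 to 53.0), beside 20% and 48.0% of all UMIs. In untreated cells Id1 was at 460 CPM (447 to 473) in colonocyte-like, 379 CPM (371 to 387) in proliferating-like, 184 CPM (173 to 194) in goblet-like and 142 CPM (112 to 176) in enteroendocrine-like cells. The unnamed cluster 7 was the highest at 519 CPM (484 to 556), and the shallow goblet-like cluster 4 the lowest at 85.3 CPM (70.4 to 102). Id2 was lower in colonocyte-like cells, at 60.5 CPM (55.8 to 65.5), than in proliferating-like cells, at 99.3 CPM (95.4 to 103), which held 63.6% of its UMIs. Id3 was at 105 CPM (99.0 to 112) and 116 CPM (112 to 120) in the same cells. Smad6 was at 7.53 CPM (5.92 to 9.43) in colonocyte-like and 4.68 CPM (3.86 to 5.64) in proliferating-like cells, and highest in cluster 7 at 20.8 CPM (14.3 to 29.4).

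The Id levels were high in barcodes under 2000 UMIs as well. Kept cells were deeper, with medians of 33550 UMIs untreated, 68784 at 24 h and 10772 at 48 h. In barcodes under 2000 UMIs, Id1 was at 431, 409 and 272 CPM, Id2 at 90.9, 73.5 and 47.5 CPM and Id3 at 145, 178 and 111 CPM in the untreated, 24 h and 48 h library. Summed over cells, Id1 was at 0.808, 0.963 and 0.798 of that level and Id3 at 0.705, 0.876 and 0.704 of it, so the background moved in the same direction as the cells between 24 h and 48 h for each Id gene. Against the untreated library, Id3 at 24 h was higher in both, while Id1 was higher in cells and lower in the background. A ratio of CPM levels does not give the part of free RNA in the Id values, which was not tested. Smad6 and the receptors were above background in every library, by 3.57 to 6.78 times for Smad6 and by 2.96 to 4.01 times for Bmpr1a.

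Within colonocyte-like cells, where Bmp2 was lower at both times, the Id genes went separate ways at 24 h and were all lower at 48 h. Id1 was at 460 CPM untreated, 514 CPM (501 to 528) at 24 h and 287 CPM (273 to 300) at 48 h, log2 ratios of 0.16 (0.11 to 0.22) and -0.68 (-0.76 to -0.60). Id3 was at 105, 151 and 69.6 CPM, log2 ratios of 0.52 (0.41 to 0.63) and -0.60 (-0.76 to -0.43). Id2 was at 60.5, 53.8 and 32.2 CPM, log2 ratios of -0.17 (-0.34 to -0.004) and -0.91 (-1.15 to -0.68), and its 24 h value changed sign to 0.40 when clusters were drawn at a resolution of 1. Smad6 was at 7.53, 2.04 and 4.58 CPM from 75, 22 and 28 UMIs, log2 ratios of -1.88 (-2.64 to -1.18) and -0.72 (-1.40 to -0.07). Under TMM scaling the 24 h ratios were 0.61 for Id1, 0.28 for Id2, 0.97 for Id3 and -1.44 for Smad6.

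Proliferating-like cells, where the Bmp2 level was near that of barcodes under 2000 UMIs, showed the same order of the Id genes. There, Id1 was at 379, 393 and 236 CPM and Id3 at 116, 164 and 93.9 CPM. The log2 ratio of Id1 was 0.05 (0.02 to 0.09) at 24 h and -0.68 (-0.73 to -0.63) at 48 h, against 0.16 and -0.68 in colonocyte-like cells. Id3 was at 0.50 and -0.30, and Smad6 at -1.28 (-1.70 to -0.86) and -1.27 (-1.81 to -0.76). In goblet-like cells Id2 was at 57.1, 30.4 and 19.8 CPM, log2 ratios of -0.91 (-1.20 to -0.63) and -1.53 (-1.91 to -1.15). The 24 h value of Id2 was thus further below 0 in goblet-like cells than in colonocyte-like cells, with intervals that did not overlap, and the difference itself was not tested.

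Over clusters, Id1 was higher at 24 h in 7 of 8 by value, with intervals clear of 0 in 4, and lower at 48 h in 7 of 9. Id3 was likewise higher at 24 h in 7 of 8, with intervals clear of 0 in 5, and lower at 48 h in 7 of 9. The exceptions at 24 h were the unnamed cluster 7 for Id1, at -0.14, and the goblet-like cluster 5 for Id3, at -0.22. Both had intervals clear of 0, and Bmp2 was also lower by value in these clusters. At 48 h Id1 was higher with an interval clear of 0 in 1 cluster. Id2 differed from Id1 and Id3, since at 24 h it was lower in 6 of 8 clusters, with intervals clear of 0 in 5. It was higher in the other 2, both with intervals clear of 0, and at 48 h it was lower in 9 of 9. Under TMM scaling Id1 and Id3 were higher at 24 h in 8 of 8 clusters, while Id2 was lower in 3 and higher in 5. Against 24 h, the 48 h levels of Id1, Id2 and Id3 were lower in 8 of 8 clusters each, also under TMM scaling. Among clusters with at least 10 UMIs over both libraries, Smad6 was lower in 6 of 7 at 24 h and in 7 of 8 at 48 h. These clusters share their 3 libraries and are not replicates. With the untreated makeup of clusters the ratios were 0.09 and -0.63 for Id1, -0.19 and -0.61 for Id2, 0.49 and -0.38 for Id3, and -1.26 and -1.17 for Smad6 at 24 h and 48 h.

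**Figure D4:**
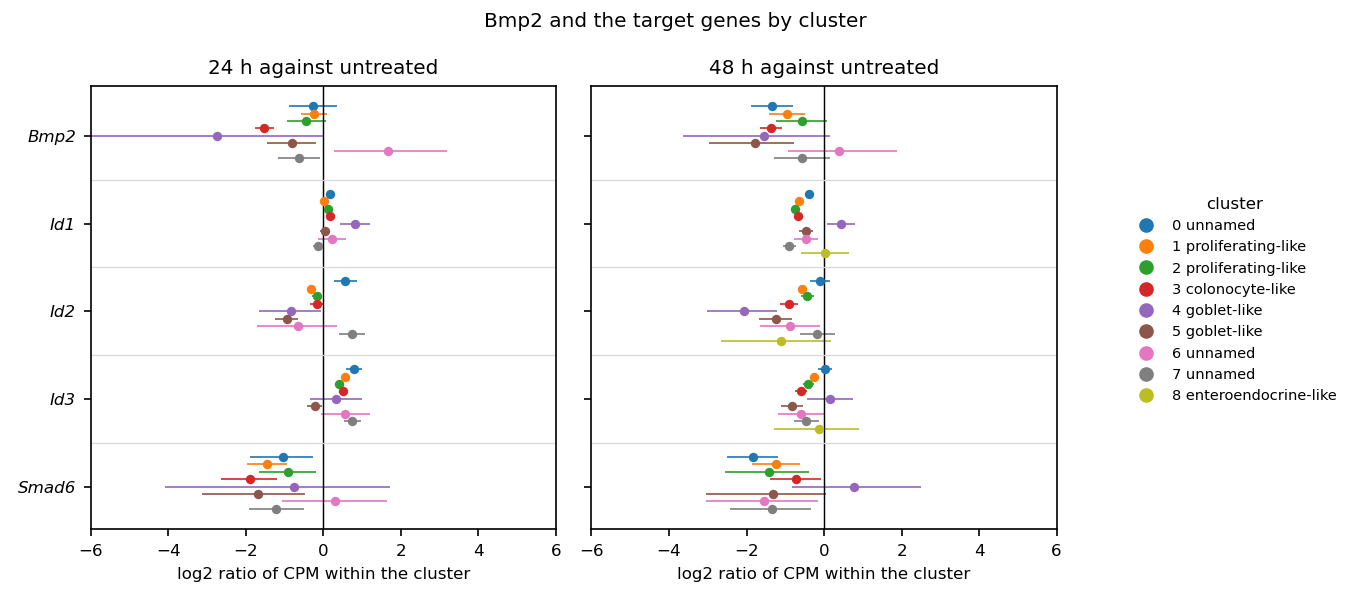
Log2 ratio of CPM to the untreated library within each of clusters 0 to 8 (colours) for Bmp2, Id1, Id2, Id3 and Smad6, at 24 h (left) and 48 h (right), with 95% intervals for counting error drawn no further than 6 either way. Clusters with fewer than 20 cells in a library, or with no UMI in one, are not drawn. Id1 and Id3 lie right of 0 in 7 of 8 clusters at 24 h and left of it in 7 of 9 at 48 h. Id2 lies left of 0 in 6 of 8 and 9 of 9. Among clusters with at least 10 UMIs over both libraries, Smad6 lies left of 0 in 6 of 7 and 7 of 8. Smad6 in cluster 4 at 24 h, from 6 and 2 UMIs, is drawn but not counted.

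Cell by cell, targets were compared between thinned colonocyte-like cells with and without a Bmp2 UMI. Id1 was at 374 CPM in 39 untreated cells with Bmp2 and at 438 CPM in 133 cells without, a log2 ratio of -0.23 (-0.62 to 0.15). At 24 h the 10 cells with Bmp2 were at 860 CPM and the other 98 at 437 CPM, a log2 ratio of 0.98 (0.47 to 1.46). At 48 h, 25 and 245 cells were at 376 and 301 CPM, a log2 ratio of 0.32 (-0.15 to 0.76). An interval clear of 0 was thus found for Id1 at 24 h, from 10 cells, and for no comparison of Id2, Id3 and Smad6 in this class. In proliferating-like cells Id1 had a log2 ratio of 0.54 (-0.03 to 1.06) at 24 h, from 11 cells with Bmp2, and of 0.57 (0.02 to 1.07) at 48 h, from 19. Over all cells the log2 ratio of Id1 was 0.03 (-0.27 to 0.31) untreated, 0.62 (0.35 to 0.88) at 24 h and 0.41 (0.14 to 0.67) at 48 h, and that of Smad6 at 48 h was 1.84 (0.33 to 3.06) from 6 UMIs in cells with Bmp2. The values over all cells mix cell types. In the unnamed cluster 0, Id2 in the untreated library was at 1.55 (0.04 to 2.78), from 6 UMIs in 14 cells with Bmp2. BMP2 is secreted, so a cell's own transcript does not set the ligand it meets.

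Across the 9 clusters with at least 20 cells, the Pearson r of the Bmp2 level with Id1 was 0.30 untreated, 0.61 at 24 h and 0.64 at 48 h. With Id2 it was -0.10, 0.54 and 0.22, with Id3 0.18, 0.69 and 0.32, and with Smad6 0.40, 0.005 and 0.79. At 24 h cluster 9 takes the place of the enteroendocrine-like cluster, and it was the highest for Bmp2, for Id2 at 201 CPM and for Id3 at 284 CPM, and had no Smad6 UMI. The values at 24 h without it were not computed, and the clusters of a library share its depth and free RNA. Median depth per cluster moved with these genes as well. Its r in the untreated library was -0.93 with Bmpr1a, -0.90 with Bmpr2 and -0.91 with Acvr1, and 0.75 with Id1, 0.77 with Id2 and 0.90 with Id3. At 48 h the values were -0.86, -0.94 and -0.90 for the receptors and 0.76, 0.75 and 0.82 for the Id genes. At 24 h, with cluster 9 as the shallowest, they were -0.83 for Bmpr1a but -0.19 for Bmpr2, -0.29 for Acvr1, 0.33 for Id1, 0.06 for Id2 and 0.18 for Id3. In the untreated and 48 h libraries, then, receptor levels were higher and Id levels lower in shallow clusters, and the part of depth in these levels was not tested. Bmpr1a, for example, was at 153 CPM (143 to 163) in the shallow cluster 0 and 205 CPM (170 to 246) in enteroendocrine-like cells, against 78.8 CPM (73.4 to 84.5) in colonocyte-like cells.

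The genes whose log2 levels were most like those of Bmp2 over the 27 sums, among 9072 genes, were Cyp2s1 with a Pearson r of 0.909, Metrnl with 0.901, AA467197 with 0.858, Krcc1 with 0.846 and Cyp3a13 with 0.843. Cyp2s1 and Cyp3a13 encode cytochrome P450 enzymes and Metrnl a secreted factor. In colonocyte-like cells Cyp2s1 was at 83.3, 30.4 and 26.3 CPM in the untreated, 24 h and 48 h library, while Metrnl was at 60.0, 53.8 and 37.4 CPM. Id1 had an r of 0.525 with Bmp2. The genes most like Id1 were Id3 with 0.901, Kxd1 with 0.892, Ldha, encoding lactate dehydrogenase A, with 0.847, Mrps6 with 0.829 and Ankrd9 with 0.819. Ldha was at 1250, 1350 and 735 CPM over all cells, also highest at 24 h and lowest at 48 h.

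Of 43 other genes of the pathway, 26 were measured at 24 h, with at least 10 UMIs over both libraries. Of these, 10 were at least 2-fold lower and 3 at least 2-fold higher, where 26.0% and 3.46% of all genes were, and their median log2 ratio was -0.83 against -0.46 for all genes. At 48 h, 25 were measured, 8 at least 2-fold lower and 2 at least 2-fold higher, where 16.6% and 5.26% of all genes were, with a median of -0.31 against -0.18. By role, 3 of 4 measured ligands, 2 of 4 receptors and 2 of 2 co-receptors were at least 2-fold lower at 24 h. For SMADs and ubiquitin ligases it was 0 of 7, for antagonists 1 of 6 and for further targets 2 of 3. In the other direction, 2 of 6 antagonists and 1 of 3 further targets were at least 2-fold higher at 24 h. By value 4 of the 6 antagonists were higher, with a median log2 ratio of 0.10. Under TMM scaling 0 of the 6 were at least 2-fold lower and 2 at least 2-fold higher.

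Bmp3, encoding a family member known to oppose other BMPs, was at 7.33, 1.83 and 1.71 CPM, log2 ratios of -2.003 (-2.30 to -1.71) and -2.10 (-2.46 to -1.74). It was the one gene of this list that passed 2-fold in 1 direction at both times and reached 5 CPM in a library. The other genes named are those with the most UMIs in each role. Smad4, the shared partner of the receptor-activated SMADs, was at 140, 97.0 and 96.2 CPM, log2 ratios of -0.53 and -0.54. Acvr2a, a type II receptor, was at 48.2, 26.6 and 38.8 CPM, Rgmb, a BMP co-receptor, at 36.5, 13.4 and 21.8 CPM, and Bmp8b, a ligand, at 20.4, 15.6 and 22.0 CPM. Rgmb is also on the stem marker list, but it was left out when clusters were named. Among antagonists, Twsg1 was at 10.9, 11.3 and 15.4 CPM, and among further targets Atoh8, a transcription factor gene, at 3.82, 1.62 and 2.26 CPM, beside a background of 4.02, 2.01 and 2.27 CPM.

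Transcripts of the antagonist genes that the gut stroma is known to express were nearly absent. Grem1 had 1, 0 and 0 UMIs, Nog 3, 0 and 1, and Chrdl1 none in the cells of any library. These genes, and Smad7 and Msx1 below, were singled out after their values were seen. Smad7, encoding the other inhibitory SMAD, was at 35.8, 19.3 and 17.7 CPM, log2 ratios of -0.89 (-0.99 to -0.79) and -1.02 (-1.14 to -0.90), the same direction as Smad6, beside a background of 10.6, 12.7 and 7.40 CPM. Msx1, a homeobox target gene of BMP, went the other way, at 0.301, 2.63 and 2.12 CPM from 15, 187 and 100 UMIs, log2 ratios of 3.13 (2.37 to 3.99) and 2.81 (2.02 to 3.70), beside a background of 0.241, 1.08 and 1.45 CPM.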

How the data were processed

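Mouse colon organoids were measured in 3 single-cell libraries, 1 untreated, 1 at 24 h and 1 at 48 h of IFN-γ. Per the submitters' processing notes and the labels, the authors made 3' v3 libraries and processed reads with Cell Ranger 6.0.1 on mm10; the annotation release is not given in the sources used here. The deposited values are counts of UMIs per gene and barcode, not normalized. Dead cells had been sorted out by FACS, which removes cells stained by DAPI.

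Counts were summed over cells that passed the study's filter, scaled to CPM and compared as log2 ratios with exact conditional binomial intervals. Levels have exact Poisson and shares exact Clopper-Pearson intervals. All intervals are at 95% and leave out errors from PCR and the choice of cells. With 1 library per group no test was made. A gene at 0 counts as past 2-fold. Thinning drew 5000 UMIs per cell without replacement, which every kept cell held. Free RNA was read from barcodes under 2000 UMIs, a window that starts at the lowest barcode of each library. No doublet caller was run. The calculation of ratios was checked on simulated Poisson counts with known fold changes. These counts hold no spread between cells or libraries, so the check does not cover such spread.

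Clusters were made in Seurat 5.3.0 by CCA integration over 30 dimensions with 1991 of 2000 variable genes, the other 9 being BMP genes, 20 principal components and a resolution of 0.5. A cluster took a name if at least 3 markers were up by a log2 fold of 0.5 and at least 1 was among its 10 leading genes, with no list having more. This naming rule was settled after the clusters were seen, replacing one based on the highest median fold. A difference from the study's cell types may come from these rebuilt names. Colonocyte-like and enteroendocrine-like are 1 cluster each; proliferating-like and goblet-like are 2 clusters each.

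The genes and lists were chosen with earlier results of these data known. Named genes are the 10 members, other pathway genes past 2-fold in 1 direction at both times with at least 5 CPM in a library, those with the most UMIs in each role, and the 5 genes most like Bmp2 and Id1 by Pearson r of log2(CPM + 1) over genes averaging 10 CPM or more. TMM factors came from edgeR 4.0.16. Other alternatives were minima of 2000 and 10000 UMIs, at most 10% mitochondrial UMIs, thinned cells, means over cells and no filter on low counts, and for clusters resolutions of 0.3 and 1, 30 principal components and all variable genes. Positions are from GENCODE vM21 (GRCm38), the assembly that mm10 names, and promoters from RefSeq.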

Additional observations from a re-analysis of the deposited data

Results flagged for a closer look

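Results whose log2 ratio to the untreated library pointed one way at 24 h and the other at 48 h, with both intervals clear of 0, are listed here. The difference between the times was not tested, since each rests on 1 library and both share the untreated one. Over all cells these were Bmpr1a at -0.22 and 0.18, Id1 at 0.18 and -0.68, and Id3 at 0.61 and -0.39 at 24 h and 48 h. In colonocyte-like cells they were Bmpr1a at -0.35 and 0.18, Id1 at 0.16 and -0.68, and Id3 at 0.52 and -0.60. For Bmpr1a over all cells the TMM value at 24 h was 0.22, so that both times then had the same sign.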

How the results depend on the processing

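No paired analysis was possible because each group has 1 library, and no replicate could be left out. By value, Bmp2 and Smad6 stayed lower than in the untreated library under all 8 alternatives at both times, with ranges of -1.14 to -0.58 and -1.32 to -0.36 at 24 h and of -1.58 to -1.22 and -1.28 to -0.75 at 48 h. The -0.36 of Smad6 came from thinned cells, with a UMI left in 33 untreated cells and 19 cells at 24 h. Id1 ranged from 0.09 to 0.62 at 24 h and from -0.73 to -0.49 at 48 h, and Id3 from 0.49 to 1.06 and from -0.41 to -0.20. Which genes passed 2-fold was less stable. At 24 h the count of members at least 2-fold lower went from 2 to 1 with a minimum of 2000 UMIs and with means over cells, and to 0 after thinning and under TMM scaling, which also gave 1 member at least 2-fold higher. Thinning left 1 member lower at 48 h, 3 other pathway genes lower and 1 higher at 24 h, and 5 lower at 48 h. The cause of these changes was not tested, though thinning also leaves fewer genes measured. No filter on low counts gave 5 other pathway genes higher at 48 h in place of 2.

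Bmpr1a changed sign at 24 h under TMM scaling (0.22) and at 48 h after thinning (-0.0391) and with means over cells (-0.0245). Id2 at 24 h had no fixed sign, from -0.19 to 0.42 over all cells, and in colonocyte-like cells it turned to 0.40 at a resolution of 1 and with all variable genes. The colonocyte-like share of untreated Bmp2 UMIs moved to 53.0% at a resolution of 1 and 53.1% with all variable genes. That of Id1 moved to 27.3% at a resolution of 0.3, 21.6% at 1, 31.7% with 30 principal components and 22.0% with all variable genes, as the cluster's share of all UMIs moved from 20% to 21.3%, 14.5%, 25% and 14.4%. Values without the 5% of cells with most UMIs, with the untreated makeup of clusters, and of targets under other clusterings were chosen after seeing the data. Depth limits Bmp7, with at most 62 UMIs in a library, and the enteroendocrine-like cells, of which at most 30 were kept. The libraries differed in depth per cell together with treatment, so depth and treatment cannot be told apart.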
